A study of Mus musculus with 8 samples.

Results

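The comparison described here set mouse embryonic stem cells that received a siPOOL against Zic2 against cells that received a negative control siPOOL. A siPOOL is a mixture of many small interfering RNAs that share 1 target transcript, so that the off-target effects of any single one are diluted. The libraries were chosen by their labels alone: the 2 siZic2 and the 2 siNeg libraries, 4 of the 8 libraries of the series. Every library, the controls included, came from E14 mouse embryonic stem cells (129/Ola background, blastocyst origin) in which the miR-290-295 cluster had been knocked out, grown on gelatin with serum and LIF. Each siPOOL was transfected at 5 nM and cells were harvested 36 h later. The other 4 libraries were 2 with a siPOOL against Tfap4 and 2 with a siPOOL against Wiz. They entered the expression filter, the scaling and the estimate of the spread. Their values are also given beside some genes and in counts of genes that lay apart from them. No sort of transfected cells is described in the labels, so fewer affected cells and a weaker effect per cell cannot be told apart.

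Zic2 is a zinc finger transcription factor of the Zic family, relatives of the Gli factors that carry out Hedgehog signalling. In embryonic stem cells it has been described at enhancers together with the NuRD chromatin remodelling complex, and in the embryo it is known for its part in forebrain and neural tube development. Zic5 is its neighbour on the same chromosome, read from the opposite strand. The microRNAs that these cells lack act through a seed, bases 2 to 8 of the mature strand, that pairs with target transcripts. They are shown because siZic2 and siNeg cells alike lack them, with the seed in capitals (RefSeq, GRCm38.p6, mature strands read 5′ to 3′):
mmu-miR-290a-3p: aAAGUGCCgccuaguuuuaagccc
mmu-miR-291a-3p: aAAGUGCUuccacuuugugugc
mmu-miR-294-3p: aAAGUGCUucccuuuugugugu
mmu-miR-295-3p: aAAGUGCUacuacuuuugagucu
The last 3 share the seed AAGUGCU, and the first differs from it in its last base. All 4 lie on the plus strand of chromosome 7, between 3218674 and 3220837.

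The values are counts of reads at transcript ends, given as CPM, the count scaled to a common library size with TMM factors. The libraries held 8326675 to 13788856 counted reads. Of 55421 genes in the table, 14647 passed the expression filter and were tested with edgeR's quasi-likelihood test on all 8 libraries, with p-values adjusted by Benjamini-Hochberg over these genes. A call means an adjusted p under 0.05. The 2 siNeg libraries were less alike than the 2 siZic2 libraries: 1362 genes differed by more than 2-fold between the siNeg libraries and 766 between the siZic2 libraries. Across genes, the log2 CPM of siZic2 replicate 1 correlated with siNeg replicate 1 at r = 0.988 and with siZic2 replicate 2 at r = 0.982, a description over 14647 genes that share these libraries. Genes with near-identical copies can lose or share reads. Counts were very low for mt-Co2, with 0 in each of the 4 libraries compared, and for Rpl24, with 3 to 7. The cause was not tested for these 2 genes.

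Zic2 itself was a low transcript in these cells, and its lowering by the siPOOL could not be shown with these libraries. Zic2 (ENSMUSG00000061524, GRCm38 chromosome 14, 122475435 to 122479852, plus strand) had 31 and 17 counts in siZic2, or 2.15 and 1.83 CPM, and 54 and 23 counts in siNeg, or 4.49 and 2.21 CPM. Both siZic2 values lay below both siNeg values, but siZic2 replicate 1 and siNeg replicate 2 were nearly the same. The exact Poisson intervals at the 95% level, which cover counting error only, were 1.46 to 3.05 CPM for the first and 1.40 to 3.32 CPM for the second. That of siNeg replicate 1, 3.37 to 5.86 CPM, lay wholly above that of siNeg replicate 2. The 2 controls thus differed by more than counting error. The fitted level in siZic2 was 59.5% of the control (log2 fold change -0.75, 95% interval -1.72 to 0.22, edgeR adjusted p = 1). An exact two-sided permutation test of the 4 libraries gave p = 0.333, which is the smallest that 2 against 2 libraries allow. The value rests on siNeg replicate 1: without it the log2 fold change was -0.11, and without siNeg replicate 2 it was -1.16. In siWiz Zic2 had 2.59 and 2.01 CPM, which overlapped siZic2, and in siTfap4 it had 6.20 and 5.39 CPM. In their own siPOOLs, Tfap4 stood at 39.4% of the control (edgeR adjusted p = 0.00417) and Wiz at 38.0% (adjusted p = 0.708), so only Tfap4 passed the test. The siZic2 libraries are described by their label in what follows.

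No gene passed the test between siZic2 and siNeg. The count of calls was 0 of 14647 (0% of genes tested) in edgeR and 0 in DESeq2, and the smallest adjusted p in edgeR was 1. In edgeR 86 genes (0.587%) had an unadjusted p under 0.05, against 49 in DESeq2. That share is far below the 0.05 expected if no gene differed, so the edgeR p-values were conservative. With the siZic2 and siNeg libraries alone the share was 1.11% (155 genes), also below it. The cause was not tested. Leaving out siNeg replicate 1 raised the 86 to 576, 502 of them higher in siZic2. Of the 86 genes, 50 had higher and 36 lower means in siZic2, and 60 had a mean under 5 CPM. The median log2 fold change over all genes was 0, the median of its size was 0.16, and 350 genes had a size over 1. The siZic2 and siNeg libraries did not overlap for 3493 genes (23.8% of those tested), 1776 higher in siZic2 (12.1%) and 1717 lower (11.7%).

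**Figure D1:**
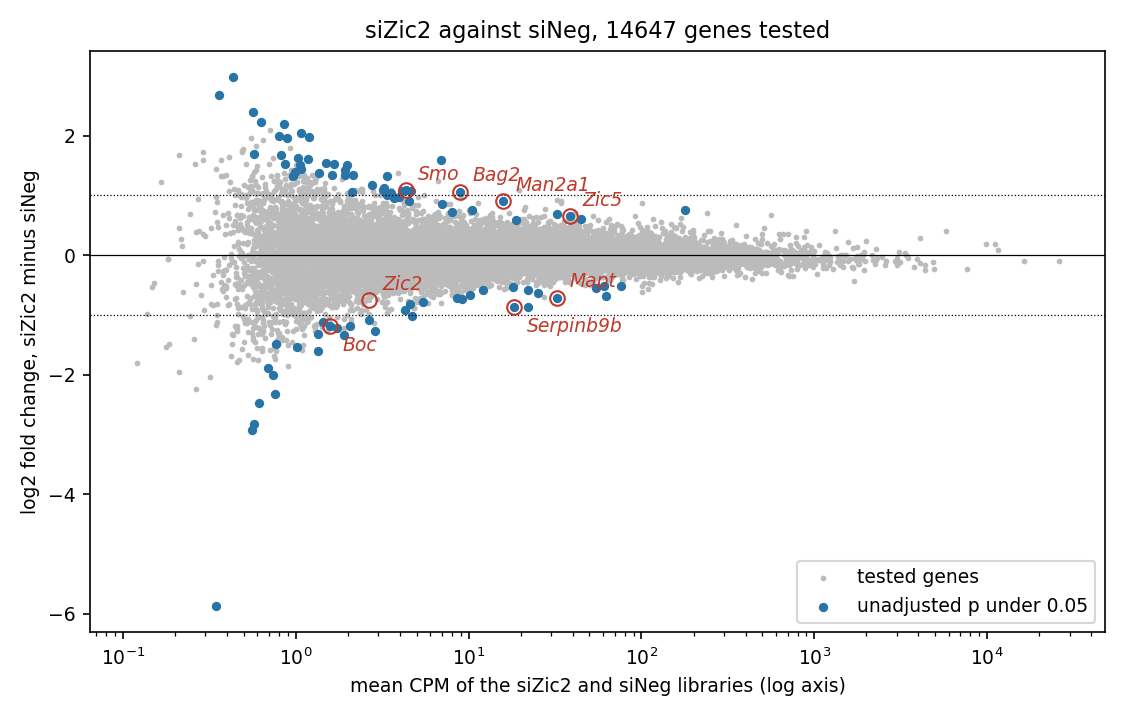
Log2 fold change (siZic2 minus siNeg) of the 14647 genes tested against their mean CPM on a log axis, with the 86 genes of unadjusted p under 0.05 in blue and 8 genes of the text circled. Dotted lines mark a 2-fold difference, and the genes beyond it lie mostly at a few CPM or less.

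The fit bounds what a missed call leaves possible. For 8959 genes (61.2% of those tested) the 95% interval of the log2 fold change lay inside -1 to 1, so that a 2-fold difference in either direction was outside it. Leaving out siZic2 replicate 1, siZic2 replicate 2 or siNeg replicate 1 lowered this count to 5737, 5667 or 5820. The share depended on the level of the transcript. It was 95.5% of 1982 genes with at least 100 CPM, 93.6% of 4502 genes from 20 to 100 CPM, and 71.9% of 3616 genes from 5 to 20 CPM. From 1 to 5 CPM, the range of Zic2 itself, it was 7.58% of 3338 genes, and it was 0% of 1209 genes under 1 CPM. The median half-width of the interval was 1.44-fold in the highest of these classes, 1.61-fold from 5 to 20 CPM and 3.21-fold under 1 CPM. These widths carry no adjustment for the number of genes tested, so they are not limits of detection. Larger differences also missed a call with 2 libraries a group: 350 genes had a log2 fold change over 1 in size and 0 were called.

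Among the Zic genes, Zic5 was higher in both siZic2 libraries than in any other library. Zic5, a family member that is also used as a marker of primed pluripotency (ENSMUSG00000041703, GRCm38 chromosome 14, 122456795 to 122465677, minus strand), had 54.3 and 40.2 CPM in siZic2 and 34.8 and 25.4 CPM in siNeg. Both siZic2 values lay above both siNeg values, and above the 36.5 and 29.4 CPM of siWiz and the 13.5 and 21.8 CPM of siTfap4. The difference was 1.57-fold (log2 0.65, 95% interval 0.03 to 1.27, edgeR unadjusted p = 0.0401, adjusted p = 1), and the log2 value ran from 0.44 to 0.93 with a library left out. Zic1 had 0 counts in each of the 4 libraries, and Zic4 had at most 3. The bases around the start of Zic5 are shown because Zic5 and Zic2 are neighbours and their values lay on opposite sides of the control; capitals would mark the Zic core motif CCTGCTG or its reverse CAGCAGG, searched on both strands (RefSeq, GRCm38.p6, chr14:122465609-122465908, minus strand, 250 bases before to 50 after the start):
Zic5: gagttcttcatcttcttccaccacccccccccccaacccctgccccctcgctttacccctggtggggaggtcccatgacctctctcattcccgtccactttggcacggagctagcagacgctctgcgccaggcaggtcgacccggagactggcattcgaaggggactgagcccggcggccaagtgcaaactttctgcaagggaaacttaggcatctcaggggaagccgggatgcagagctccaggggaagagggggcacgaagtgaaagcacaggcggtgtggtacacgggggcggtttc
These letters hold 0 matches, as do most such windows: 10.5% of the 32851 windows in the table hold at least 1.

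Hedgehog receptors and outputs were measured in the same list of 24 Zic, Gli and Hedgehog genes, 17 of which were tested and 0 called. Smo, the membrane protein that passes the Hedgehog signal on, had 5.06 and 6.78 CPM in siZic2 and 3.57 and 1.92 CPM in siNeg. Both siZic2 values also lay above all 4 values of the other siPOOLs (log2 1.09, interval 0.17 to 2.01, edgeR adjusted p = 1; 0.72 to 1.64 with a library left out). Boc, a coreceptor of Hedgehog ligands, had 1.04 and 0.861 CPM in siZic2 and 2.08 and 2.31 CPM in siNeg (log2 -1.18, interval -2.34 to -0.02). At these low counts the intervals are wide. Gli1 and Ptch1, genes that Hedgehog signalling switches on, are named after their values were seen. Gli1 had 47.3 and 56.5 CPM in siZic2 and 75.1 and 71.9 CPM in siNeg (log2 -0.50, interval -1.01 to 0.01), and Ptch1 had 166 and 177 against 207 and 200 CPM (log2 -0.25, interval -0.78 to 0.28). In both genes the siZic2 and siNeg values did not overlap. The siWiz values, 42.1 and 56.3 CPM for Gli1 and 174 and 183 CPM for Ptch1, overlapped those of siZic2. Gli2, also named after its values were seen, a main carrier of the signal in the nucleus, had 43.4 and 46.7 CPM in siZic2 and 37.8 and 36.1 CPM in siNeg (log2 0.28). Over the list, 4 members lay above and 6 below the control without overlap (58.8% of 17, against 23.8% of all genes), 3 had an unadjusted p under 0.05 in edgeR, and the median log2 fold change was 0, the same as over all genes.

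**Figure D2:**
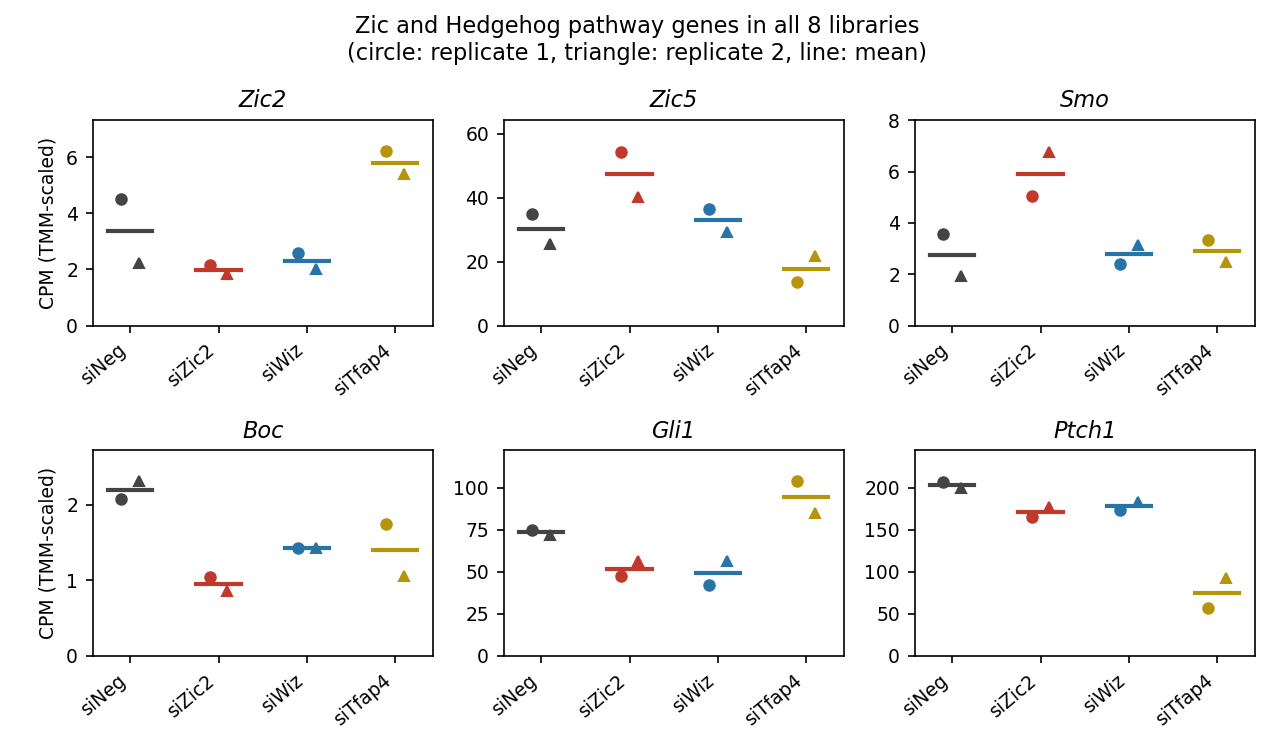
TMM-scaled CPM of 6 Zic and Hedgehog genes in each of the 8 libraries, grouped by siPOOL, each axis starting at 0. The siZic2 points of Zic5 and Smo lie above those of every other library, and the siZic2 points of Zic2 overlap those of siWiz.

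Large and repeatable differences were few at levels where they could be measured well. Of the 3493 genes without overlap, 288 differed by at least 2-fold, and 1 of these also had a mean of at least 10 CPM, Ftl2-ps, a processed pseudogene of ferritin light chain, named after its values were seen. It had 23.4 and 30.2 CPM in siZic2, 13.6 and 11.4 CPM in siNeg, and 36.2 and 5.44 CPM in siWiz. Its log2 fold change was 1.09, with an interval of -0.10 to 2.29. How far its transcript end is shared with other genes was not measured, so its counts are uncertain. A share of these genes also lay apart from the other siPOOLs: 692 higher (4.72% of genes tested) and 674 lower genes (4.6%) in siZic2 were apart from siWiz too, and 517 higher (3.53%) and 456 lower genes (3.11%) were apart from all 6 other libraries. These counts were not tested and do not show that a difference is particular to siZic2. The smallest unadjusted p in the comparison, 0.00798 in edgeR, belonged to Bag2, a cochaperone of Hsp70 proteins. Bag2, also named after its values were seen, had 12.5 and 11.4 CPM in siZic2 and 6.32 and 5.19 CPM in siNeg, and at most 6.69 CPM in the 4 other libraries (log2 1.06, interval 0.32 to 1.79, adjusted p = 1).

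Protein-coding genes with at least 10 CPM were ranked by the separation of their libraries, the smallest of the 4 log2 differences between a siZic2 and a siNeg library. Of 8199 such genes, the 12 with the largest separation in each direction are described here, without implying a call. The 12 higher genes were 1.40- to 1.87-fold above the control and the 12 lower genes 1.31- to 1.82-fold below it. Unadjusted p-values in edgeR ran from 0.0108 to 0.202, and 4 higher and 4 lower genes were under 0.05. The ranked separations just inside and just outside the limit were 0.41 and 0.39 for higher genes and 0.35 and 0.35 for lower genes, so the limit marks no gap.

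Among the higher genes, Man2a1, a Golgi mannosidase that trims N-glycans, had 22.3 and 18.8 CPM in siZic2 and 14 and 7.88 CPM in siNeg. Both siZic2 values lay above all other libraries, and the difference was 1.87-fold (log2 0.90, interval 0.17 to 1.64). Casd1, a sialic acid O-acetyltransferase of the Golgi, had 21.6 and 23.9 CPM in siZic2 and 16.2 and 13.9 CPM in siNeg (log2 0.59, interval 0.06 to 1.12). Golga7, a partner of a palmitoyltransferase at the Golgi, had 15.9 and 16.1 CPM in siZic2 and 11.2 and 9.99 CPM in siNeg (log2 0.59, interval -0.03 to 1.21). These 3 genes, Abhd4, a lipase of N-acyl phospholipids (log2 0.56), and Ankrd13c, an endoplasmic reticulum protein (log2 0.48), were the 5 of 12 whose siZic2 libraries stood above all 6 other libraries. Inpp5f, a phosphoinositide phosphatase, had 15.5 and 15.4 CPM in siZic2 and 11.0 in each siNeg library, but siWiz, at 16.2 and 15.7 CPM, was as high.

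In the other 6 higher genes at least 1 siWiz library reached the level of siZic2. Lrfn4, a synaptic adhesion protein gene, had 12.8 and 13.4 CPM in siZic2, 6.57 and 9.03 CPM in siNeg and 12.9 and 8.88 CPM in siWiz (log2 0.75). H3f3a, a gene of the replication-independent histone H3.3, had 64.8 and 68.9 CPM in siZic2, 44.9 and 44.2 CPM in siNeg and 66.0 and 31.2 CPM in siWiz (log2 0.59). The ribosomal protein genes Rpl35 (log2 0.75, interval 0.11 to 1.38) and Rpl15 (log2 0.87, interval -0.15 to 1.89), the constitutive chaperone gene Hspa8 (log2 0.63) and the zinc finger gene Zfp980 (log2 0.87) had the same pattern. In siWiz replicate 1 and 2, Rpl35 had 324 and 158, Rpl15 132 and 36.8, Hspa8 293 and 78.8 and Zfp980 16.8 and 4.77 CPM, so the siWiz libraries were further apart than the siZic2 libraries. Of these 6, Rpl35, Hspa8 and Zfp980 share 96.7%, 74.4% and 69.6% of the 31-base words in the last 300 bases of their main transcript with other genes. Their counts are uncertain for that reason, and those of H3f3a, Rpl15, Rpl35, Man2a1 and Golga7 because annotated genes on the opposite strand overlap them and the strand setting is not known. Inpp5f and Hspa8 overlap annotated genes on their own strand, which leaves their counts uncertain with any strand setting.

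Among the lower genes, Serpinb9b, a serine protease inhibitor of the granzyme B inhibitor family, had the largest separation. It had 12.3 and 13.8 CPM in siZic2 and 23.6 in each siNeg library, with 20 and 18.6 CPM in siWiz and 7.56 and 15.8 CPM in siTfap4 (55.0% of the control, log2 -0.86, interval -1.53 to -0.20, adjusted p = 1). Mapt, which encodes the microtubule-binding protein tau, had 23.9 and 25.4 CPM in siZic2 and 45.1 and 35.2 CPM in siNeg (61.3% of the control, log2 -0.71, interval -1.22 to -0.19). The siZic2 values of Mapt were the lowest of the 8 libraries, but siWiz replicate 2, at 25.8 CPM, was close to them. Cpne5, a calcium-dependent membrane-binding copine, had 45.0 and 51.2 CPM in siZic2 and 71.6 and 82.1 CPM in siNeg (log2 -0.68, interval -1.26 to -0.09), and siWiz reached 42.6 CPM. Adgrd1, an adhesion G protein-coupled receptor, had 77.5 and 96.9 CPM in siZic2 and 130 and 129 CPM in siNeg (log2 -0.57, interval -1.15 to 0.01), the lowest levels of the 8 libraries. Mapt and Adgrd1 were the 2 of 12 lower genes whose siZic2 libraries stood below all 6 others.

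The remaining lower genes differed by less. Ccne2, the cyclin E2 gene that acts at the entry into S phase, had 34.8 and 39.3 CPM in siZic2 and 50.8 CPM in each siNeg library, and siWiz had 33.5 and 38.2 CPM (log2 -0.46, interval -0.93 to 0.01). Its interval was the only one of the 24 that lay inside 2-fold. Plekhd1 (log2 -0.53, interval -1.05 to -0.02) and Pbxip1, a cofactor of PBX homeobox proteins (log2 -0.49), had siZic2 values of 13.9 to 15.6 and 20.2 to 20.7 CPM, below the 20.9 to 21.7 and 28.3 to 29.1 CPM of siNeg. Sgms2, a sphingomyelin synthase (log2 -0.54), Rubcn, an inhibitor of autophagy (log2 -0.49), Osbpl10, an oxysterol-binding protein relative (log2 -0.49), Eml2, a microtubule-binding protein (log2 -0.44), and Mms22l, which acts in repair of stalled replication forks (log2 -0.39), completed the rank. Intervals of these 5 genes included 0. Serpinb9b, Cpne5, Rubcn and Ccne2 also overlap an annotated gene on the opposite strand, with the same doubt about their counts. Eml2 overlaps an annotated gene on its own strand, so its counts are uncertain too.

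**Figure D3:**
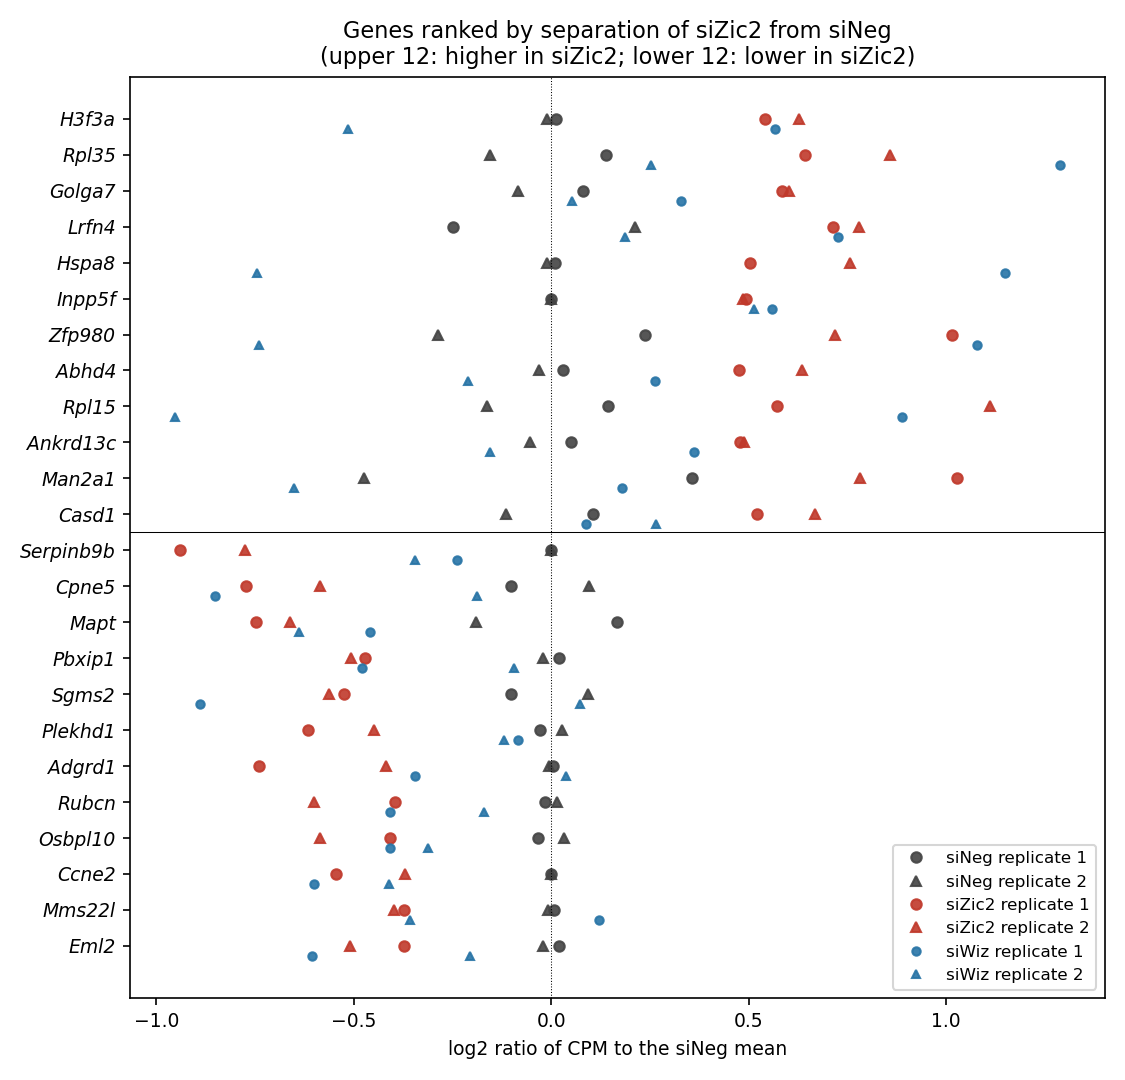
Log2 ratio of each library's CPM to the siNeg mean for the 24 genes ranked by separation, with siNeg, siZic2 and siWiz libraries (circles, replicate 1; triangles, replicate 2). The siZic2 points are clear of the siNeg points by construction of the rank, and 5 higher and 5 lower genes are clear of the siWiz points too.

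Promoter windows were searched for the Zic core motif in the ranked genes. Of the 12 higher genes 10 had a window in the RefSeq table and 0 held CCTGCTG or CAGCAGG, and of the 12 lower genes 8 had a window and 1 held it, Sgms2. Among all tested genes with a window, 1284 of 10277 (12.5%) held it. The median log2 fold change was -0.01 in genes with the motif and -0.01 in the 8993 genes without it. The libraries did not overlap in the higher direction for 12.8% of genes with and 12% without the motif, and in the lower direction for 13.6% with and 11.9% without it. The window of Sgms2 that holds the match, 136 bases before one of its annotated starts, is shown with the match in capitals (GRCm38.p6, chr3:131489720-131490019, minus strand):
Sgms2: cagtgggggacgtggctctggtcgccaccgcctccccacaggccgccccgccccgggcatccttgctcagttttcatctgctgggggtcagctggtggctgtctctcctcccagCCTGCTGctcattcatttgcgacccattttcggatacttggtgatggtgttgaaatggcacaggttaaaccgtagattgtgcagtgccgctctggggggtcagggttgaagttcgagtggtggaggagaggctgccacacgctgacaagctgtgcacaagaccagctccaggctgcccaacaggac
A match describes the letters of the window and is no evidence of binding.

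The core factors Pou5f1, Sox2 and Nanog, named after their values were seen, had 22.4 and 25.9, 763 and 784, and 382 and 516 CPM in siZic2, against 24.4 and 27.5, 861 and 758, and 399 and 314 CPM in siNeg. The groups overlapped for each of the 3. Of 14 general pluripotency factors edgeR called 0, and the interval lay inside 2-fold for 12 of them. Without overlap, 3 lay above and 5 below the control (57.1% against 23.8% of all genes), 9 of the 14 log2 fold changes were negative and the median was -0.09. Lin28a, an RNA-binding protein that blocks let-7 processing, had 47.7 and 55.0 against 63.4 and 62.5 CPM (log2 -0.29, interval -0.79 to 0.20). Of 24 naive factors edgeR called 0, and 20 were inside 2-fold. Zfp42, or Rex1, had 453 and 369 CPM in siZic2 and 341 and 237 CPM in siNeg (log2 0.51, interval -0.08 to 1.10), and Tfcp2l1 had 338 and 318 against 403 and 409 CPM (log2 -0.31, interval -0.78 to 0.17). Dppa5a, a KH-domain protein of these cells whose transcript end is 56.3% shared with other genes, had 596 and 795 against 376 and 489 CPM (log2 0.68, interval -0.30 to 1.67), with 848 and 246 CPM in the siWiz libraries.

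Formative and primed markers, the list to which Zic2 and Zic5 themselves belong, had mostly positive differences without a call. Of 18 tested members, 16 had a positive and 2 a negative log2 fold change, with a median of 0.23 against 0 over all genes, where 7263 of 14647 were positive. The siZic2 and siNeg libraries overlapped for most of them: 4 members lay above and 1 below the control without overlap, 27.8% against 23.8% of all genes. Sox4, an SRY-related factor of early differentiation, had 12.6 and 15.2 against 11.0 and 7.40 CPM (log2 0.59), and Sfrp2, a secreted Wnt modulator, had 6.93 and 12.5 against 6.65 and 3.94 CPM (log2 0.86, interval -0.07 to 1.78). The summed level of the list was 726 and 587 CPM in siZic2 and 664 and 439 CPM in siNeg, so siNeg replicate 1 lay between the siZic2 libraries and siNeg replicate 2 below all of them. No set was tested.

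Lineage marker lists gave 0 calls. Of 10 tested neural markers, 1 lay above and 3 below the control without overlap (40% against 23.8% of all genes tested). Among their log2 fold changes 5 were positive and 5 negative, with a median of 0.02. The higher one was Sox21, a neural progenitor factor, with 16.4 and 16.9 CPM in siZic2 and 13.3 and 7.98 CPM in siNeg (log2 0.64, interval -0.10 to 1.38). En1, a midbrain homeobox factor and 1 of the 3 lower, had 0.901 and 1.61 against 1.83 and 2.31 CPM (log2 -0.75). Of 15 endoderm markers, 3 lay above and 2 below the control without overlap (33.3% against 23.8% of all genes, median log2 fold change 0.13). Gata6, a primitive endoderm factor, had 1.80 and 1.83 against 1.16 and 0.480 CPM (log2 1.11, interval -0.27 to 2.49). The 2 lower members were the matrix genes Sparc, at 351 and 315 against 398 and 418 CPM (log2 -0.29, interval -0.79 to 0.20), and Lama1, at 19.9 and 11.2 against 23.3 and 20.4 CPM (log2 -0.48). Of 8 mesoderm markers, 2 lay above and 1 below without overlap (37.5% against 23.8% of all genes), and 5 had negative log2 fold changes (median -0.12). Gata6, which is in both lists, was 1 of the 2 higher members. Over all genes tested the share without overlap was 29.9% under 1 CPM and 28.7% from 1 to 5 CPM. The shares of these lists were not tested. Mixl1, a homeobox gene of the primitive streak, had 0.762 and 1.08 against 0.333 and 0.384 CPM, and Meox1, a homeobox gene of somites, had 0.832 and 1.08 against 1.33 and 1.73 CPM (log2 -0.69, interval -2.15 to 0.78). The 12 trophectoderm markers had a median log2 fold change of -0.13, with Tfap2c at 134 and 213 against 178 and 252 CPM. Defining fibroblast genes were at or near 0: Col1a1 had 4 and 5 counts in siZic2 and 1 and 5 in siNeg, and Postn had 0 in each. Of the fibroblast list only 4 genes passed the filter, and their summed level, mostly Fn1, was 478 and 344 CPM in siZic2 and 547 and 343 CPM in siNeg, so the groups overlapped.

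Genes of NuRD, the complex described with Zic2 at enhancers, were bounded closely, and those of the Polycomb complexes less so. All 17 NuRD members were tested and 0 called, and the interval lay inside 2-fold for 16, with a median log2 fold change of 0.01. Mbd2, the methyl-CpG-binding subunit, had 27.7 and 35.7 CPM in siZic2 and 23.0 and 22.2 CPM in siNeg (log2 0.48, interval -0.26 to 1.23), and Gatad2a, a scaffold subunit, had 105 and 106 against 122 and 133 CPM (log2 -0.27). Of 27 Polycomb members 0 were called and 19 were inside 2-fold. The chromodomain gene Cbx8 had 1.59 and 1.72 CPM in siZic2 and 0.665 and 0.673 CPM in siNeg (log2 1.29, interval -0.04 to 2.62), with 1.69 and 1.05 CPM in siWiz. Cbx2 had 23.8 and 19.3 against 15.4 and 18.5 CPM (log2 0.35). Without overlap, 4 NuRD members lay above and 2 below the control (35.3%), and 9 Polycomb members above and 5 below (51.9%), against 23.8% of all genes; these shares were not tested.

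Signalling targets gave 0 calls in each of the 7 lists of pathway genes beside Hedgehog. For Nodal signalling, 13 of 16 tested members had a positive log2 fold change (median 0.15), 6 lay above the control without overlap and 0 below (37.5% against 23.8% of all genes). They included Pcsk6, a protease that matures Nodal (32.6 and 26.7 against 22.4 and 21.2 CPM, log2 0.44, interval -0.07 to 0.96), Smad4, the common mediator (65.2 and 60.3 against 52.2 and 46.4 CPM, log2 0.35), and the receptor gene Acvr1b (23.7 and 22.3 against 18.8 and 12.5 CPM, log2 0.55). BMP targets were split, with Id2, an inhibitor of helix-loop-helix factors, at 44.6 and 40.7 against 52.2 and 62.8 CPM (log2 -0.43, interval -0.92 to 0.05) and the pseudoreceptor gene Bambi at 8.59 and 11.4 against 7.56 and 3.46 CPM (log2 0.85). Wnt targets had a median of -0.10, with the receptor-removing ligase gene Znrf3 at 12.4 and 13.4 against 9.56 and 9.61 CPM (log2 0.43), Lef1 at log2 0.39 and the homeobox gene Cdx1, also in the retinoic acid list, at 2.08 and 2.58 against 3.49 and 3.17 CPM (log2 -0.52, interval -1.51 to 0.46), and 8 of the 13 members were negative. ERK targets had a median of -0.06 (Fgfr1 0.32, Etv4 -0.32), LIF and STAT3 targets -0.04 (Socs2 -0.18), Notch genes 0.10 (Notch2 0.38, Hey1 0.70) and retinoic acid targets 0.12 (Meis1 1.22, Crabp2 0.60, Cdx1 -0.52). Of 11 tested Notch genes 10 were positive, and 2 lay above the control without overlap and 0 below (18.2% against 23.8% of all genes). Meis1 had only 33 and 12 counts in siZic2 and 4 and 13 in siNeg, with an interval of -0.74 to 3.18. Without siNeg replicate 2, the log2 fold change was 0.05 for Lef1, -0.02 for Notch2, 0.29 for Acvr1b and 0.39 for Bambi.

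Lists that bear on the microRNA-deficient background and on siRNA delivery had medians close to 0. Of 14 tested genes described as targets of the deleted microRNAs, 0 were called, 11 were inside 2-fold and the median log2 fold change was 0.09. In this list 11 members were positive and 3 negative. Without overlap, 4 lay above and 1 below the control (35.7% against 23.8% of all genes), a share that was not tested. The actin-severing cofilin gene Cfl2 had 44.2 and 57.2 CPM in siZic2 and 41.7 and 34.7 CPM in siNeg (log2 0.41), and Lats2, a Hippo kinase gene, had 7.83 and 8.61 against 5.82 and 6.82 CPM (log2 0.38). Of 13 genes of the RNA interference machinery 12 were inside 2-fold (median 0.04), with Drosha, the nuclear microRNA-processing enzyme, at 141 and 146 against 161 and 185 CPM (log2 -0.27). Interferon and double-stranded RNA sensing genes had a median of 0 over 16 tested members, with Bst2 at 3.33 and 3.23 against 4.66 and 4.32 CPM (log2 -0.45), and Isg15, too low to test, had 5 and 5 counts in siZic2 and 7 and 6 in siNeg.

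Housekeeping and cell cycle genes mostly had intervals inside 2-fold. The interval lay inside 2-fold for 27 of 28 DNA replication genes (median -0.05, Rfc1 -0.25, Rrm1 0.24), 23 of 25 mitosis genes (median 0.04, Aurkb 0.71, or 0.21 without siNeg replicate 2), 18 of 20 p53 targets (median -0.01, Sesn1 0.65), 21 of 23 integrated stress response genes (median -0.10, Psph 0.52, Atf4 -0.27) and 22 of 23 cholesterol synthesis genes (median -0.05, Dhcr7 -0.38). Of 34 ribosomal protein genes 28 were inside 2-fold and 2 lay above the control without overlap, 5.88% against 23.8% of all genes. Rps6, whose transcript end is 84.4% shared with other genes, had 32.2 and 53.2 CPM in siZic2 but 36.5 and 8.26 CPM in siNeg. Its log2 fold change of 0.92 rests on siNeg replicate 2, without which it was 0.22. In siWiz Rps6 had 27.2 and 6.11 CPM, and in siTfap4 9.18 and 7.15 CPM. The mitochondrial mRNA mt-Nd2 gave 6600 and 6660 against 7500 and 2470 CPM, with siNeg replicate 2 the lowest of all libraries. Its log2 fold change turned from 0.41 to -0.18 without siNeg replicate 2. Glycolysis genes had a median of 0.01, with Pgk1 at log2 0.90 (7.55 and 9.47 against 6.90 and 2.11 CPM, log2 0.30 without siNeg replicate 2) and Gapdh at 0.48. The transcript end of Gapdh is 91.1% shared with other genes. Adhesion genes had a median of -0.10, with E-cadherin, Cdh1, at 495 and 450 against 590 and 571 CPM (log2 -0.30).

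**Figure D4:**
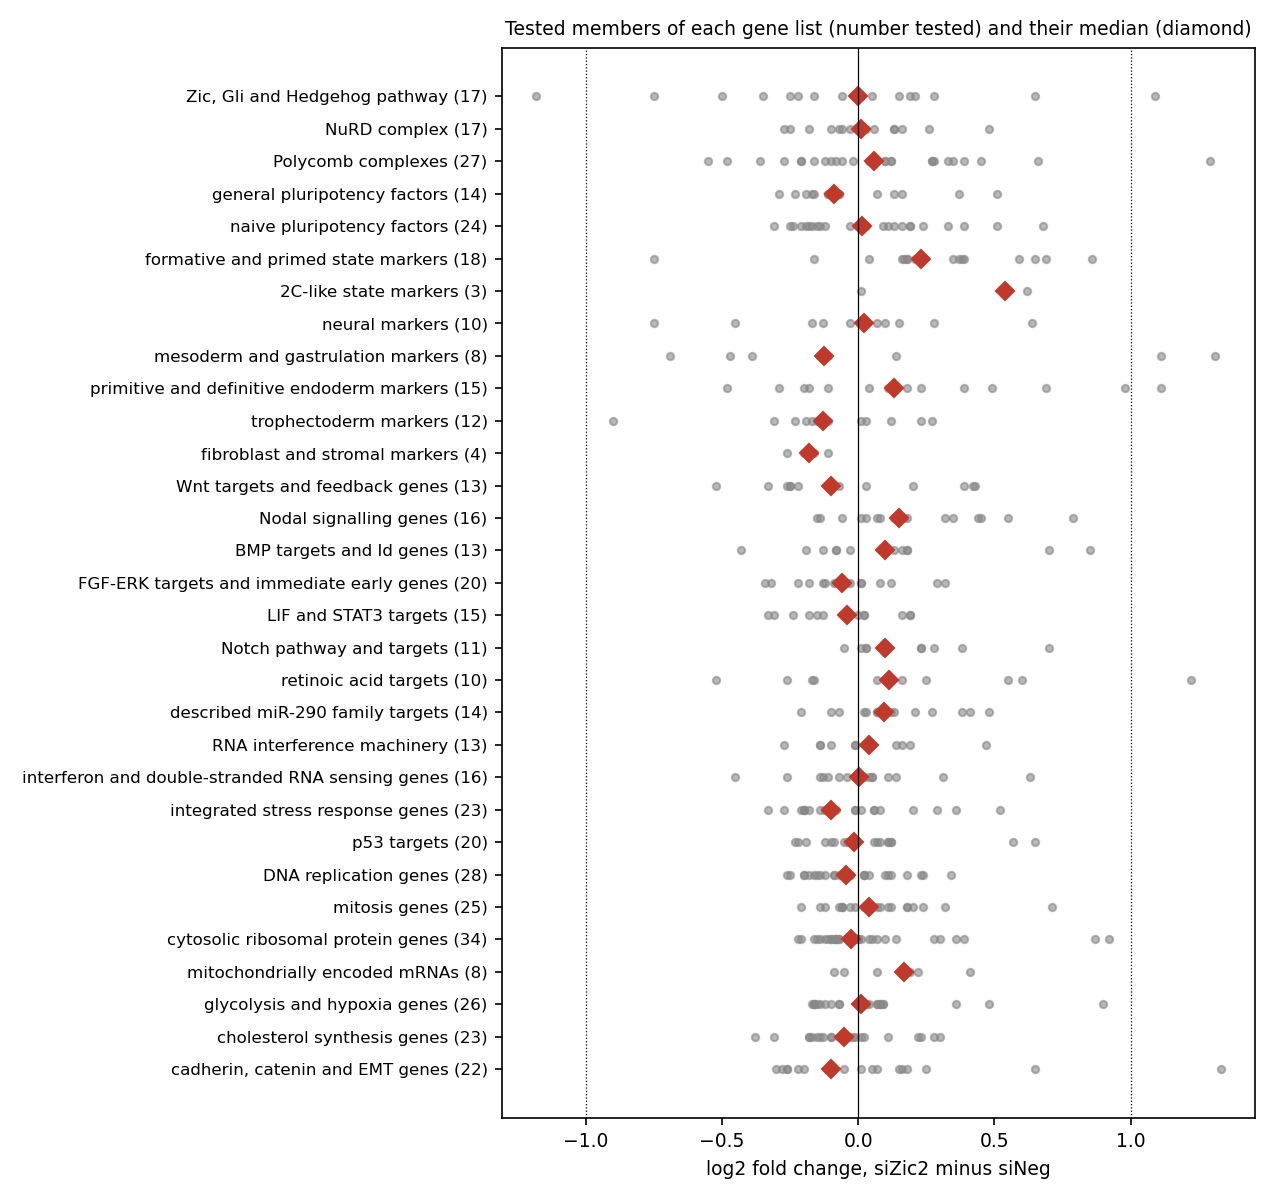
Log2 fold change (siZic2 minus siNeg) of the tested members of each of the 31 gene lists, with the median as a diamond and the number tested in brackets. Medians lie between -0.18 and 0.23 except for the 2C-like list, whose 3 tested members have a median of 0.54; dotted lines mark 2-fold.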

How the data were processed

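Libraries were made from Trizol RNA with the QuantSeq FWD kit, which reads transcript ends, per the labels' protocols. The authors deposited raw counts per Ensembl gene, whole numbers with no normalization, per the file headers and values. Trim Galore and the build GRCm38 come from the submitters' processing notes, while the sources used here do not give the aligner, counter, annotation, strand setting or use of molecular identifiers. Symbols for 55154 of 55421 identifiers and positions came from GENCODE M21.

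Genes passing filterByExpr were scaled by TMM and fitted with edgeR 4.0.16 (R 4.3.3), 1 mean per group, 8 libraries, no block; the common dispersion was 0.0495 with 4 residual and 9.7 prior degrees of freedom. Intervals (95%) use the standard error from the F statistic. Separations used log2 CPM with a prior count of 2. Named genes were Zic2, called genes, the 12 best separated in each direction with at least 10 CPM, and up to 3 members per list with the smallest p; exceptions are marked, and genes given only as counts are exceptions too. The comparison and the gene lists were chosen with earlier results of these data known, although its libraries follow from their labels. Alternatives, DESeq2 1.42.0 included, are in the closing section. The labels call the libraries biological duplicates without naming separate cultures, so p-values measure the spread between these libraries, which may be technical.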

Additional observations from a re-analysis of the deposited data

How the results depend on the processing

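The count of called genes was 0 with RLE size factors, library totals, both other filters, the siZic2 and siNeg libraries alone, both siTfap4 libraries left out, the replicate number as a block, DESeq2, a 1.5-fold minimum and any 1 of the 4 libraries left out. One setting chosen after seeing the data, the 4 libraries alone with the replicate block and 1 residual degree of freedom, gave 5 called genes: BC002163 (log2 1.61), Rps6 (1.16), Ftl2-ps (1.09), Cfap20 (1.06) and Rpl15 (0.86). Same-numbered libraries deviated together in 5 of 6 pairs of groups (correlations 0.13, 0.17, 0.25, 0.33 and, for siZic2 and siNeg, 0.27) but not in siTfap4 and siWiz (-0.04). Since a shared number was taken as a pair only if every correlation was over 0.1, the replicate block is an alternative here. The groups that missed this, siTfap4 and siWiz, are outside the comparison described, and the labels do not say that a shared number marks a pair. Genes at an unadjusted p under 0.05 numbered 86, against 264 without the filter, 29 at a mean of 5 CPM, 155 in the 4 libraries alone, 49 in DESeq2, 184 with the block, 349 with the block and without siTfap4, 519 with the block in the 4 libraries alone, and 59 to 576 with a library left out. The highest, 576 without siNeg replicate 1, had 502 genes higher in siZic2; the cause was not tested.

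Genes without overlap numbered 5656 without the filter and 2168 at a mean of 5 CPM, as more or fewer genes were tested. Intervals inside 2-fold numbered 5667 to 6845 with a library left out. Zic2 kept its negative sign wherever it was tested, from -1.16 to -0.11 with a library left out and -0.73 with the block, and a mean of 5 CPM removed it. Of 86 other named genes, 7 turned sign with a library left out, and their log2 values ran from -0.16 to 0.07 (Sox2), -0.29 to 0.01 (Thy1), -0.41 to 0.31 (Fn1), -0.02 to 0.99 (Notch2), -0.18 to 1.46 (mt-Nd2), -0.20 to 0.03 (Pou5f1) and -0.66 to 0.02 (Tfap2c); the cause was not tested. The depth limits transcripts under 5 CPM, Zic2 among them, and the 2 siNeg libraries also differed in Zic2.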
